A study of Saccharomyces cerevisiae with 5 samples.

Results

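The genes described here are *MAC1* (YMR021C), which encodes the copper-sensing activator of copper uptake in budding yeast, and 7 genes of copper uptake or of Mac1 control: *CTR1* (YPR124W), *CTR2* (YHR175W), *CTR3* (YLR411W), *FRE1* (YLR214W), *FRE7* (YOL152W), *IRC7* (YFR055W) and *REE1* (YJL217W). They were chosen by name, with earlier results of these data known, and are 8 of the 6697 annotated coding sequences (CDS) in the table. The cells were wild-type BY4741, a haploid laboratory strain of mating type **a** derived from S288C, which carries the deletions *ura3*Δ0, *met15*Δ0, *leu2*Δ0 and *his3*Δ1. They were grown to mid-log phase in YPD, a rich glucose medium, and were either exposed to 1 mM CuSO4 for 4 hours or given no added copper, and 1 poly(A)+ RNA library was made from each culture. Peaks of γH2A, the phosphorylated histone found at stalled or broken replication forks, were mapped in the same strain, and a γH2A library of cells given CuSO4 is not analysed here.

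Yeast takes up copper in its reduced form. Metalloreductases at the cell surface reduce cupric ions, and copper transporters of the Ctr family carry the product across the membrane. When copper is scarce, Mac1 binds the sequence TTTGCTC in the promoters of these genes and activates them, and when copper is plentiful Mac1 is inactive. Detoxification is under a separate activator, Ace1 (Cup2), which turns on the metallothionein genes when copper is in excess. For *CTR1*, *CTR3*, *FRE1*, *FRE7*, *IRC7* and *REE1*, control by Mac1 is known, and these are called the Mac1 targets here. *CTR2* and *MAC1* are not among them.

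The promoters of the targets are shown first, with the copies of the Mac1 sequence that some of them hold. All come from the RefSeq copy of the S288C genome (R64), in which the 8 CDS have the same start and end as in the table. Each line is written 5′ to 3′ on the strand of the gene, and capitals mark a match to TTTGCTC or to its reverse complement, GAGCAAA. The *CTR1* stretch is chrXVI:785864-785913 on the plus strand, that of *FRE1* is chrXII:568271-568314 on the plus strand, and that of *IRC7* is chrVI:264033-264059 on the plus strand.
CTR1: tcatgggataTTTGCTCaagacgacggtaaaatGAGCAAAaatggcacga
FRE1: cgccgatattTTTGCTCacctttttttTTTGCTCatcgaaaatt
IRC7: aaagtgccaaTTTGCTCatcagtgcta

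In the 600 bp upstream of the start codon, TTTGCTC was found on either strand in 3 of the 6 targets. *CTR1* had 3 copies, which begin 529, 334 and 311 bases upstream of the start, the last of them on the other strand, so that the closer pair is inverted. *FRE1* also had 3, at 286, 269 and 96 bases, all on the gene's own strand. *IRC7* had 1 copy, at 161 bases. Of the 6661 nuclear CDS with a full window of this length, 10.1% held at least 1 copy and 0.435% (29 CDS) held 2 or more. A match is a description of the reference sequence and was not tested as a binding site.

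*FRE7*, *REE1* and *CTR3* had no TTTGCTC in that window. Variants with another letter inside TTTGCTC were not looked for, so the absence of a Mac1 site of another form was not shown. Within 1000 bp, *FRE7* had 1 copy, as 16.2% of CDS had at least 1, and *REE1* and *CTR3* still had none. A shorter form, TGCTCA, overlaps TTTGCTC by its first 5 letters and was looked for after the values were seen. It occurred in 5 of the 6 targets and in 22.9% of all CDS. In *CTR1*, *FRE1* and *IRC7* each copy of it overlaps a TTTGCTC counted above, so only *FRE7* and *REE1* add sites. *FRE7* and *REE1* each had 2 copies of it, shown here in capitals, as was also so for 2.91% of all CDS. Those of *FRE7* lie at chrXV:40353-40378 and chrXV:40555-40580 and those of *REE1* at chrX:22710-22735 and chrX:22801-22826, all on the plus strand. In the near site of *FRE7* the capitals show the reverse complement. The small letters after them hold tttgcgc, which differs from TTTGCTC in 1 letter and was not counted.
FRE7 far site: tcatactatgTGCTCActattttcag
FRE7 near site: cattaatacgTGAGCAtttgcgcaaa
REE1 far site: tggtttaagtTGCTCAttctcaactc
REE1 near site: tatgtaaaacTGCTCAagttccaacc

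*CTR3*, which encodes a copper transporter of the plasma membrane with high affinity, is known to be disrupted by a Ty2 retrotransposon in many laboratory strains. In the reference genome a Ty2 element of 5959 bp lies at chrXII:941192-947150, on the upstream side of *CTR3* and 102 bp from its start codon. Those 102 bases held no TTTGCTC, no TGCTCA and no GCTC, the core of the motif. Beyond the far end of the Ty2 element, 2 copies of TTTGCTC stand in inverted orientation, 123 and 77 bases before the element begins. They are 6184 and 6138 bases upstream of the *CTR3* start. The stretch that holds them, chrXII:941059-941191 on the plus strand, ends at the base before the element.
CTR3 beyond the Ty2 element: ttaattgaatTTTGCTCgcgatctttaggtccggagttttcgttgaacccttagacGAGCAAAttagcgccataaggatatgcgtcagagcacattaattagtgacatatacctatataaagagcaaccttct
Neither *MAC1* nor *CTR2* had TTTGCTC in its 600 bp window. *CTR2* had 1 TGCTCA and *MAC1* had none. TGCACCC, a form of the site of the iron regulator Aft1, was absent from the window of all 8 genes and present in that of 2.64% of all CDS. Other forms of that site were not looked for, so its absence from these promoters was not shown.

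**Figure D1:**
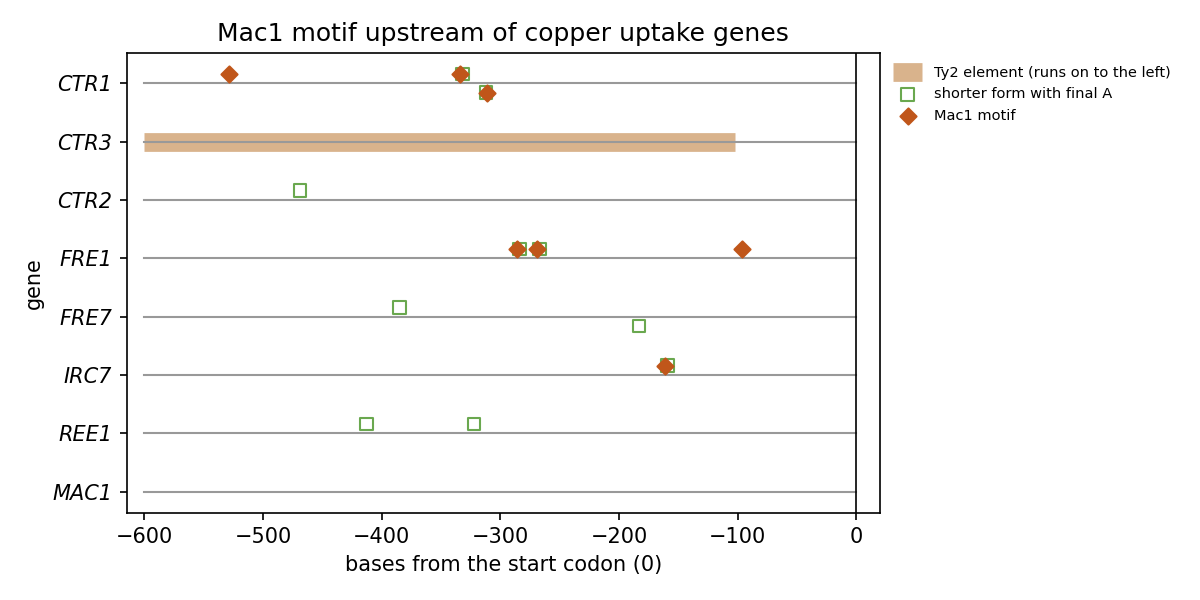
Positions of TTTGCTC (filled diamonds) and TGCTCA (open squares) in the 600 bases upstream of the start codon of each gene, on an axis of distance in bases from the start codon. Symbols above a line are on the strand of the gene and symbols below it on the other strand, and the band is the Ty2 element next to *CTR3*, which ends 102 bases from the start; *CTR1* and *FRE1* have 3 filled symbols each and *IRC7* has 1.

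The RNAseq libraries held 5749810 reads on CDS with CuSO4 and 5572698 in YPD, with medians of 290 and 276 reads per CDS. The labelled strain was checked against its deleted genes: *LEU2*, *MET17* (*MET15*) and *URA3* had no reads in either library, for which up to 3 reads are allowed, while *HIS3*, of which *his3*Δ1 removes only part, had 309 and 291. The **a**-specific receptor gene *STE2* had 5320 and 4433 reads, and the α-factor gene *MF(ALPHA)1* had none. Each condition has 1 library, so no change below has a replicate check. The intervals given are 95% Clopper-Pearson intervals on the reads of both libraries for a change, or exact Poisson intervals for a level, and cover counting error only. In bulk RNA, a change in all cells and a change in some of them cannot be told apart.

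Of the 8 genes, 5 were at least 2-fold lower in the CuSO4 library, and none was at least 2-fold higher. All 5 are Mac1 targets. Over the 6078 CDS that had 20 reads or more in either library, 0.658% were at least 2-fold lower and 0.526% at least 2-fold higher. At 4-fold the count was 2 of the 8 genes, beside 0.181% of those CDS, and at 1.5-fold it was 6, beside 1.53%. Together the 6 targets had 849 reads with CuSO4 and 4598 reads in YPD. Their summed reads were 5.61-fold lower with CuSO4 (log2 change -2.49, interval -2.59 to -2.38). Taken gene by gene, the median change of the targets was -1.68, beside 0.01 over the 6363 CDS with at least 10 reads in all.

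Among the transporters, *CTR1* stands apart. It encodes the transporter that carries most copper into the cell when copper is low, and lies on the plus strand at chrXVI:786208-787428. It had 173 reads in the CuSO4 library, against 1554 in the YPD library, a log2 change of -3.22 (interval -3.45 to -2.99), which is 9.30-fold lower. On the scale of the deposited values, log2 of scaled reads per kb of CDS, its level was 7.15 (6.92 to 7.36) with CuSO4 and 10.36 (10.29 to 10.44) in YPD. Seen against all CDS, 67.8% had a higher level than *CTR1* with CuSO4, and 9.97% in YPD.

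A CDS of the other strand, *YPR123C*, overlaps the 5′ end of *CTR1* by 368 of its 435 bases. It had 31 reads with CuSO4 and 429 in YPD, a change of -3.84 (-4.42 to -3.31). Per kb, this is 71.3 scaled reads with CuSO4 and 1021 in YPD, beside 142 and 1317 for *CTR1*. The library kit marks strand, but whether strand was used in the counting is not stated. Levels close to that of a gene on the other strand occur elsewhere, as 15.17 for *YCR013C* beside 15.12 for *PGK1* with CuSO4. Some or all reads of *YPR123C* may therefore be reads of *CTR1*, and the reads of the overlap cannot be assigned. With all reads of *YPR123C* taken away from *CTR1*, 142 reads with CuSO4 and 1125 in YPD remained, and the change was -3.04 (-3.30 to -2.78). This alternative was chosen after the data were seen, and it may take away reads that belong to *CTR1*.

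*CTR3* was low in both libraries. It lies at chrXII:947253-947978, downstream of the Ty2 element, and had 31 reads with CuSO4 and 48 in YPD. The change of -0.68 has an interval of -1.38 to 0.00074, which just includes 0, so that with these reads a fall to less than 0.5 of the YPD level and no change both lie within it. Whether it includes 0 depends on the library scale, since the upper bound was -0.01 with each library centred on its median or scaled by the median of ratios. Its level was 5.42 with CuSO4 and 6.10 in YPD, below that of 88.2% and 83.3% of CDS. Per kb, *CTR1* had 3.32 times the reads of *CTR3* with CuSO4 and 19.2 times in YPD. The Ty2 CDS between *CTR3* and the distant motif pair, *YLR410W-B*, had 57 and 78 reads, but 100% of its length is repeated elsewhere in the genome, so the place of those reads is uncertain. Whether the Ty2 element is present in the cells used here was not tested, and its part in the low level of *CTR3* was not tested.

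*CTR2* encodes a transporter of low affinity in the vacuolar membrane, which moves stored copper out of the vacuole, and lies at chrVIII:452872-453441. It had 273 reads with CuSO4 and 310 in YPD. The change of -0.23 has an interval of -0.47 to 0.0062, so that any fall was less than 2-fold as far as counting error alone goes. Here too the upper bound fell just below 0 under those scales, to -0.0072 with median centring and -0.0057 with the median of ratios. The order of *CTR1* and *CTR2* by level differed between the libraries. Per kb, *CTR2* had 479 scaled reads with CuSO4 and made up 72.2% of the 3 *CTR* genes, with *CTR1* at 21.4%. In YPD, *CTR2* had 563 and made up 28.9%, with *CTR1* at 67.6%.

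Of the metalloreductase genes, *FRE1* had the largest change of the 8 genes. Fre1 reduces both cupric and ferric ions at the plasma membrane, and the gene lies at chrXII:568567-570627 on the plus strand. It had 200 reads with CuSO4 and 1888 in YPD, a log2 change of -3.29 (-3.51 to -3.08), which is 9.77-fold lower. The intervals of *FRE1* and *CTR1* overlap, so their changes cannot be ranked. The level of *FRE1* was 6.60 (6.39 to 6.80) with CuSO4 and 9.89 (9.82 to 9.95) in YPD.

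*FRE7*, a putative reductase gene known to be induced by low copper, lies at chrXV:40748-42610 on the plus strand. It had 63 reads with CuSO4 and 217 in YPD, a change of -1.83 (-2.26 to -1.42), which is 3.57-fold lower. This interval does not overlap that of *FRE1*. At 5.08 with CuSO4 (4.70 to 5.44) and 6.91 in YPD (6.72 to 7.11), *FRE7* was among the 3 genes of the 8 with the lowest level in each library.

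The other genes of the reductase family, several of which serve iron uptake under Aft1, were compared next. Of *FRE2*, *FRE3*, *FRE4*, *FRE5*, *FRE6*, *FRE8* and *AIM14*, 0 of 7 passed 2-fold in either direction, and their changes ran from -0.29 to 0.14 with a median of -0.06. *FRE6*, whose product is a reductase of the vacuole, had 470 reads with CuSO4 and 556 in YPD (-0.29, -0.47 to -0.11), and was the only member of this list whose counting interval excluded 0. Over the CDS that had 20 reads or more in either library, 10.1% had an interval wholly below 0, and 21.7% had an interval that excluded 0 in either direction. *FRE3*, which acts on siderophore-bound iron, had 123 and 144 reads (-0.28, -0.64 to 0.08), and *FRE2* had 64 and 56 (0.14, -0.40 to 0.69).
The mixture of reductase transcripts therefore differed between the libraries. Of the reads per kb summed over *FRE1* to *FRE8*, *FRE1* made up 14.8% with CuSO4 and 57.1% in YPD. *FRE6* made up 33.5% with CuSO4, where it ranked first, and 16.2% in YPD. *FRE7* ranked 7 of 8 with CuSO4 and 3 of 8 in YPD.

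Among the other Mac1 targets, *IRC7* encodes a cysteine desulphydrase that releases thiols, and is also known to be induced by nitrogen limitation. It lies at chrVI:264204-265226 on the plus strand. It had 175 reads with CuSO4 and 489 in YPD, a change of -1.53 (-1.79 to -1.28), which is 2.89-fold lower. A CDS of the other strand, *YFR056C*, overlaps its start by 122 bp and had 24 and 31 reads (-0.42, -1.25 to 0.40). Without those reads the change of *IRC7* was -1.65 (-1.93 to -1.38), an alternative also chosen after the data were seen. The intervals of *IRC7* and *FRE7* overlap.

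*REE1* encodes a cytoplasmic protein involved in the regulation of the enolase gene product Eno1, and is known to respond to copper deficiency through Mac1. It lies at chrX:23133-23729 on the plus strand. It had 207 reads with CuSO4 and 402 in YPD, a change of -1.01 (-1.26 to -0.76), or 2.01-fold lower. This is at the threshold itself. It fell short of 2-fold under 3 alternatives, with a change of -0.99 when the libraries were scaled on their upper quartile, -0.9998 when they were scaled to total reads without the *CUP1* region and -0.99 when 5 reads were added to each value. Its counting interval stayed below 0 under every library scale tried. Its interval does not overlap that of *IRC7*, and does overlap that of *CTR3*.

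*MAC1* itself lies on the minus strand at chrXIII:317165-318418. It had 136 reads with CuSO4 and 152 in YPD. The change of -0.21 has an interval of -0.55 to 0.13, which includes 0 and, for counting error alone, places any fall at less than 2-fold. Its level was 6.76 with CuSO4 and 6.97 in YPD, in the lower part of all CDS in both libraries, since 75.2% and 71.4% of CDS had a higher level. RNA levels do not report on the activity of the Mac1 protein.

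**Figure D2:**
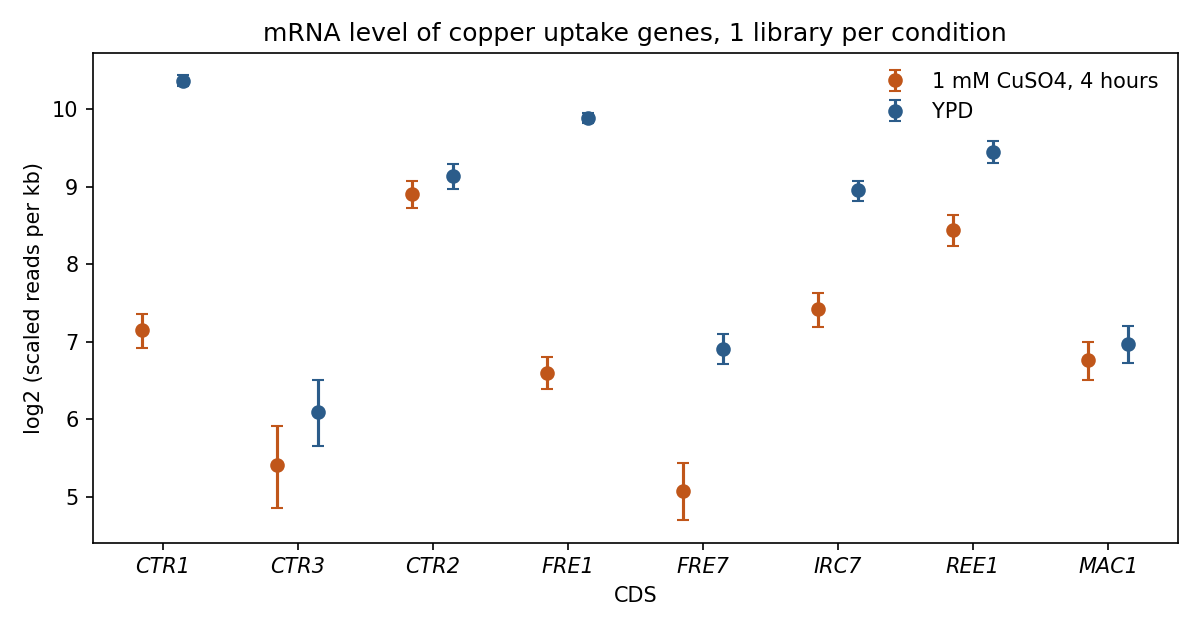
Level of each of the 8 genes, as log2 of scaled reads per kb of CDS, with CuSO4 (left point of each pair) and in YPD (right point), from 1 library each. Bars are exact 95% Poisson intervals on the reads; they do not overlap between the libraries for *CTR1*, *FRE1*, *FRE7*, *IRC7* and *REE1*, and overlap for *CTR3*, *CTR2* and *MAC1*.

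The order of the levels also differed between the libraries. With CuSO4 it was *CTR2* (8.90), *REE1* (8.44), *IRC7* (7.42), *CTR1* (7.15), *MAC1* (6.76), *FRE1* (6.60), *CTR3* (5.42) and *FRE7* (5.08). There, the counting intervals of neighbours overlapped for *IRC7* and *CTR1*, *CTR1* and *MAC1*, *MAC1* and *FRE1*, and *CTR3* and *FRE7*. In YPD the order was *CTR1* (10.36), *FRE1* (9.89), *REE1* (9.45), *CTR2* (9.14), *IRC7* (8.95), *MAC1* (6.97), *FRE7* (6.91) and *CTR3* (6.10). There, the intervals of neighbours overlapped only for *CTR2* and *IRC7*, and for *MAC1* and *FRE7*. The levels of the 8 genes spanned 3.82 log2 units with CuSO4 and 4.27 in YPD.

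Other copper genes were taken from lists made for this purpose, also with earlier results of these data known. For 11 genes of copper delivery inside the cell, 0 passed 2-fold in either direction, and the changes ran from -0.57 to 0.58 with a median of 0.03. The interval lay above 0 for 3 of them, as it did for 11.6% of the CDS that had 20 reads or more in either library. *COX17*, whose product brings copper to cytochrome oxidase assembly, had 203 reads with CuSO4 and 131 in YPD (0.58, 0.26 to 0.91). *PIC2*, a mitochondrial carrier gene, had 389 and 272 (0.47, 0.24 to 0.70), and *SCO2*, of the same assembly pathway, had 208 and 158 (0.35, 0.04 to 0.65). *COX19*, also of that pathway, had 60 and 86 reads (-0.57, -1.07 to -0.08). *ATX1*, the chaperone that serves the secretory pathway, had 151 and 117 reads, and its interval of -0.04 to 0.68 includes 0.

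Among 6 genes for other metal carriers and their control, 0 passed 2-fold. *FET4* had the largest change of these. It encodes a transporter of low affinity for iron that also takes copper and zinc, and had 339 reads with CuSO4 and 593 in YPD, a change of -0.86 (-1.05 to -0.66). It had the 52nd lowest change of the 6078 CDS counted above. The other 5, *SMF1*, *SMF2*, *SMF3*, *PHO84* and *BSD2*, had changes from -0.11 to 0.11, with intervals that include 0.
Of the copper enzymes, *SOD1* (superoxide dismutase) had 7363 reads with CuSO4 and 5627 in YPD, a change of 0.34 (0.29 to 0.39). *FET3*, the copper-dependent ferroxidase of iron uptake, had 3990 and 3442 (0.16, 0.10 to 0.23), and *FET5*, its vacuolar counterpart, had 510 and 501 (-0.02, -0.20 to 0.16). The mitochondrially encoded *COX1* and *COX2* had no reads in either poly(A)+ library, and up to 3 reads are allowed for each.

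Of the Ace1 list, 2 of 4 genes were at least 2-fold higher and none was 2-fold lower. These were *CUP1-1* and *CUP1-2*, near-identical copies between which reads cannot be assigned, with changes of 2.98 and 2.87. *CRS5*, the other metallothionein gene, had 57 reads with CuSO4 and 31 in YPD (0.83, 0.17 to 1.51). *CUP2*, which encodes Ace1, had 105 and 128 reads, and its change of -0.34 (-0.72 to 0.05) has an interval that includes 0, as does that of *MAC1*.

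**Figure D3:**
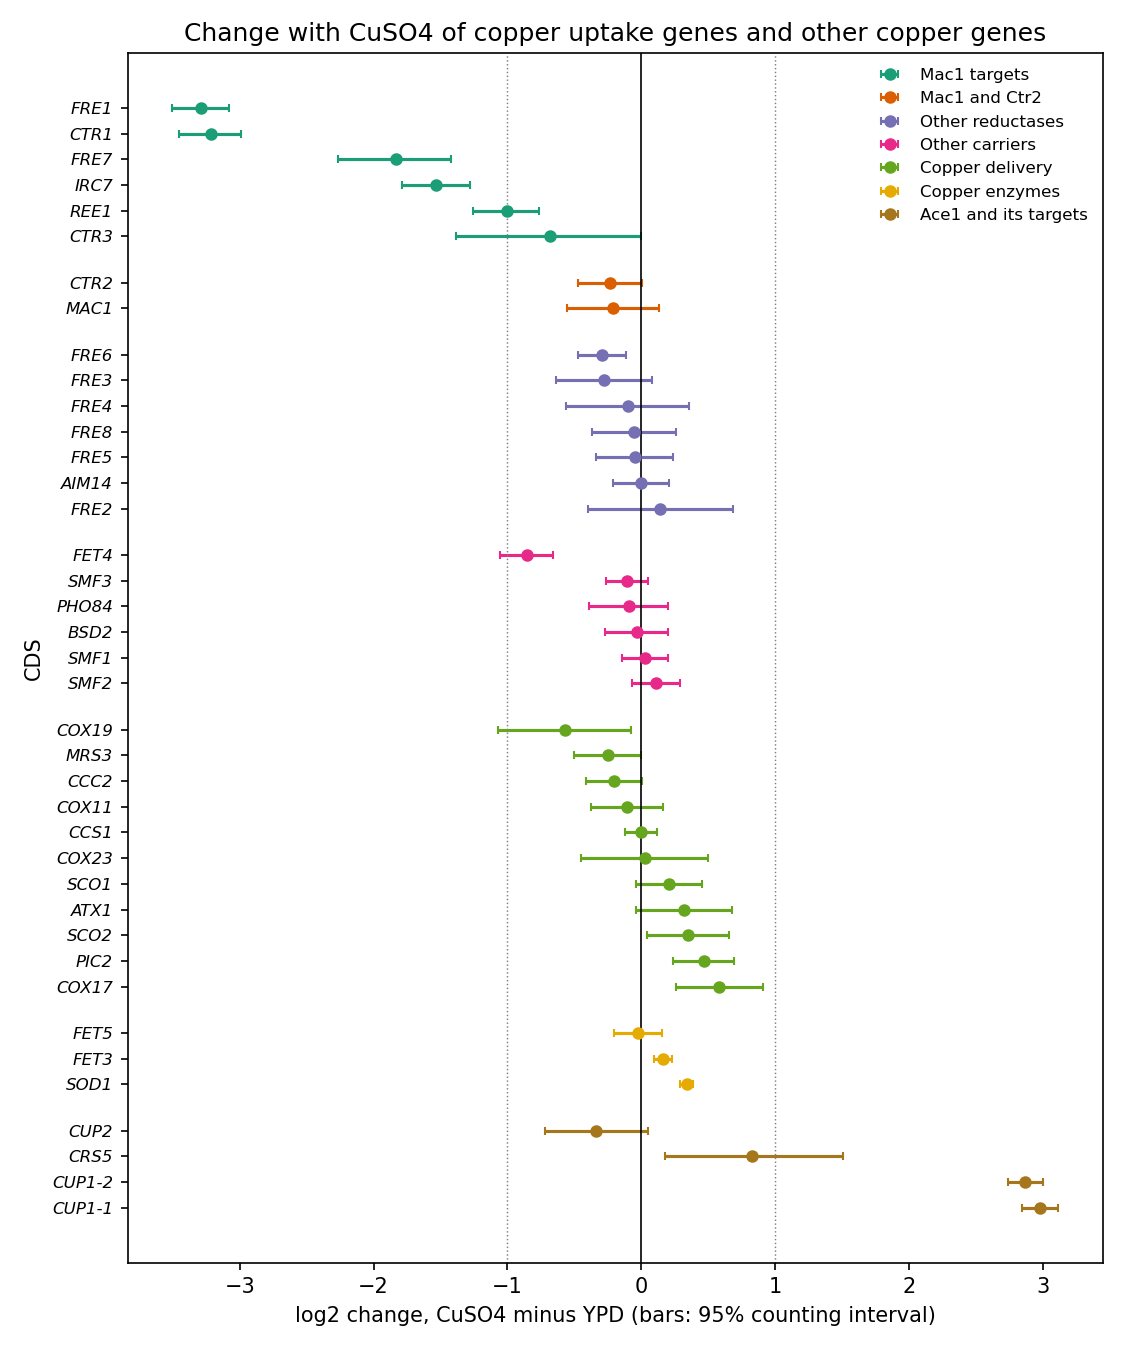
Log2 change (CuSO4 minus YPD) of the Mac1 targets, of *CTR2* and *MAC1*, and of the other lists of copper genes, for CDS that had 20 reads or more in either library; bars are 95% Clopper-Pearson counting intervals and dotted lines mark 2-fold. The 6 targets lie between -3.29 and -0.68, the 7 other reductase genes between -0.29 and 0.14, and the *CUP1* copies at 2.98 and 2.87.

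Genes next to the 8 were also examined. Of 16 nearest neighbours that do not overlap a member, 14 had 20 reads or more in either library, and 0 of these were at least 2-fold lower, beside 0.658% of all CDS with that many reads. Their changes ran from -0.97 to 0.24. *AXL1* and *YLH47*, on either side of *CTR1*, had changes of 0.10 and 0.04, and *CDC123*, downstream of *FRE1*, of -0.01. *ENO2*, upstream of *CTR2* and with 63639 reads against 67969 in YPD, had a change of -0.14 (-0.16 to -0.13), and *UBC7*, divergent from *MAC1*, of 0.24 (0.01 to 0.47).
The lowest value was that of *CRR1*, which is transcribed away from *FRE1* across a shared intergenic region of 644 bp. *CRR1* encodes a glycoside hydrolase of the spore wall. It had 39 reads with CuSO4 and 74 in YPD, a change of -0.97 (-1.57 to -0.40). The 3 copies of TTTGCTC upstream of *FRE1* lie in this region.

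The genes whose change was most like that of the targets were taken as the 5 other CDS with the lowest change, among the 5511 CDS that had 50 reads or more in either library and no near-identical copy. With 2 libraries, the log2 change is the only measure of likeness. They were *YPR123C* (-3.84), *YNL284C-A* (-1.14), *PRM7* (-1.02), *CRR1* (-0.97) and *YGR035C* (-0.95). *YPR123C* overlaps *CTR1*, as described above, so its value may be that of *CTR1* counted again and is not a separate case. *CRR1* is the neighbour of *FRE1* described above. *YNL284C-A* is a Ty CDS, with 47.5% of its length repeated elsewhere, and *PRM7* is a pheromone-regulated gene. In the same ordering the members *FRE1*, *CTR1*, *FRE7*, *IRC7* and *REE1* were at ranks 2, 3, 4, 5 and 8.

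**Figure D4:**
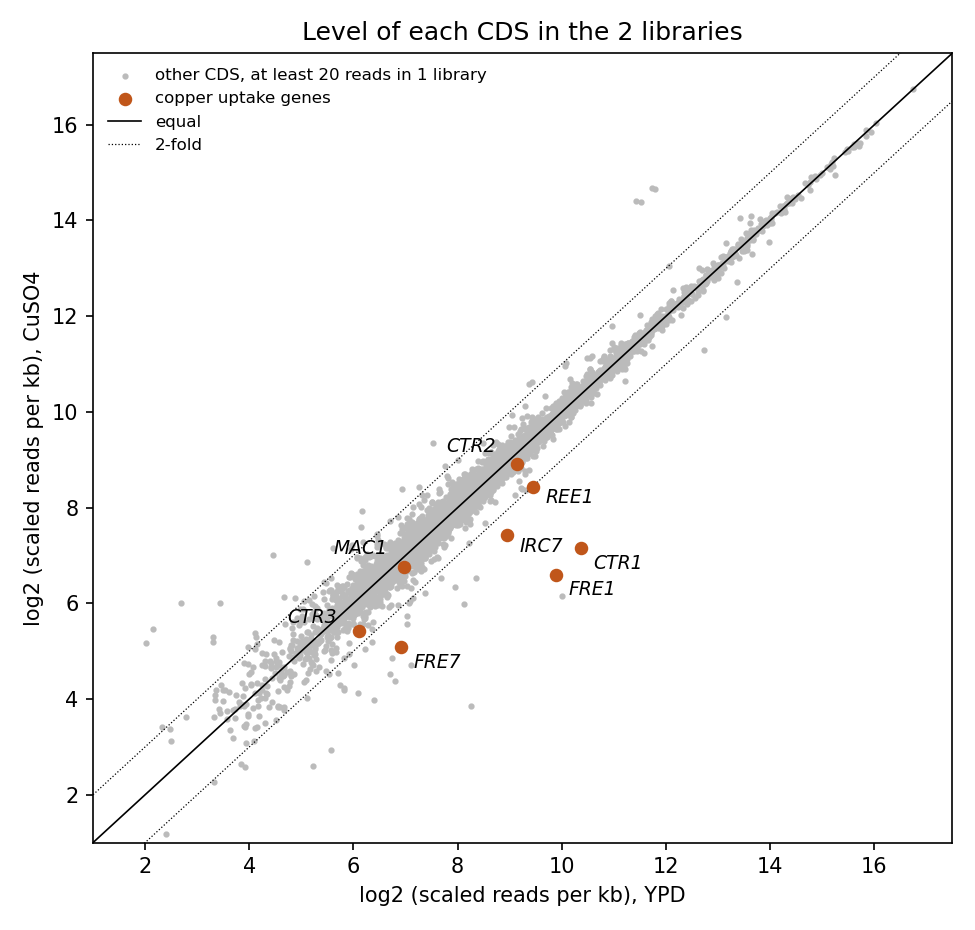
Level of each CDS that had 20 reads or more in either library, as log2 of scaled reads per kb, with CuSO4 (vertical axis) and in YPD (horizontal axis); the solid line marks equal levels and the dotted lines 2-fold. The 5 members that were at least 2-fold lower lie on or below the lower dotted line, with *FRE1* at 6.60 and 9.89 and *CTR1* at 7.15 and 10.36, while *CTR3*, *CTR2* and *MAC1* lie between the dotted lines.

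The motif was also followed over the whole genome, a count made after the data were seen. Of the CDS with 2 or more copies of TTTGCTC in the 600 bp upstream, 24 had 20 reads or more in either library. The 2 of them (8.33%) that were at least 2-fold lower with CuSO4 are *CTR1* and *FRE1*. Both were chosen as known targets of Mac1, which binds this sequence, so their place here is not separate evidence. The 22 others had a median change of -0.04, and the lowest of them was *CRR1*, whose copies are those upstream of *FRE1*, counted again. With 1 or more copies the count was 3 of 620 (0.484%), these being *CTR1*, *FRE1* and *IRC7*, and without a copy it was 37 of 5457 (0.678%). Most CDS that were 2-fold lower have near-identical copies in the genome. Such falls numbered 40 over the 6078 CDS, but 11 over the 5830 without a near-identical copy. The 2 shares were not counted again without repeated CDS, so they cannot be compared with each other. Copies of the 7 letters were thus present upstream of many CDS that were not 2-fold lower.

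In the γH2A ChIPseq, 0 of the 8 genes had a peak within the 1000 bp upstream of the start, as against 6.64% of all CDS. The peaks are the 240 of the authors' list, taken here as those of cells in YPD without added copper. For *CTR1*, *CTR3*, *FRE1* and *MAC1* the nearest peak was at least 76179 bp away, and for *CTR2* and *FRE7* it was at 19211 and 13817 bp. *IRC7*, 4935 bp from the right end of chromosome VI, is followed by a peak at chrVI:265693-270132 that starts 466 bp past its end. The enrichment of this peak, 9.48-fold, ranks 2 of the 240. *REE1* has a peak of 3.17-fold enrichment at chrX:19203-21730, which ends 1402 bp upstream of its start and outside the window.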

How the data were processed

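The authors mapped RNAseq reads with HISAT2 (2.0.5 per the submitters' processing notes) to R64-2-1, counted them per annotated CDS in SeqMonk and normalised for CDS length. The deposited numbers are log2 values, with a CDS without reads at 0.9 reads. Multiplied by length and divided by the library scale, taken from that floor (1.00 with CuSO4, 1.04 in YPD), more than 99.9% of values above the floor came within 0.05 of a whole number, and these were used as reads. For ChIPseq the authors mapped with Bowtie2 (2.2.5) and called peaks with MACS2. The deposited peak list holds pileup (a signal), fold enrichment (a ratio) and -log10 p-values. It is labelled for all 3 ChIP and input samples, so it is given as the authors' values.

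Samples were grouped by the copper treatment in the labels, with 1 library per condition, so no test was made and no p-value is given. The change is the difference of deposited log2 values (CuSO4 minus YPD), and CDS were counted at 2-fold if either library had 20 reads or more. Intervals (scipy 1.17.1) were tested on reads simulated with counting error alone, which is the case they assume. That test does not cover variation between cultures or libraries. Near-identical copies are CDS with at least 50% of their length repeated at 95% identity or more (BLAST 2.17.0). Named genes are the 8 members, their neighbours, the largest changes of each list (up to 3) and the 5 CDS of lowest change; genes outside this rule are named where a count needs them. RefSeq has an entry for 6014 of the 6697 CDS. The members and lists were chosen with earlier results of these data known. Alternatives were other library scales, added reads, thresholds, windows and motifs.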

Additional observations from a re-analysis of the deposited data

How the results depend on the processing

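No paired analysis was possible because there is 1 library for CuSO4 and 1 for YPD. Of 76 alternatives, 71 stayed within the counting interval of a value, within the range of the targets for their median, or within 1.5 times a count, and no change turned its direction. Other library scales moved every change by at most 0.02, which is less than the counting intervals reach around any member's change. For the changes of single genes, the part of these scales in the 71 was therefore fixed in advance. The number of members at least 2-fold lower was 5, and was 2 at 4-fold (*FRE1* and *CTR1*), 6 at 1.5-fold, and 4 with the upper quartile scale or total reads without the *CUP1* region, both of which leave out *REE1*. With 5 reads added *REE1* was also short of 2-fold (-0.99). The number of Mac1 targets with the motif upstream was 3 for TTTGCTC, and 5 for GCTC, which 90.7% of all CDS hold, and for TGCTCA. For TTTGCTC it was 2 within 250 bp, without *CTR1*, and 4 within 1000 bp, with *FRE7*. Without division by CDS length, 4 of the 28 pairs of members stood in another order by level with CuSO4, and 4 in YPD. For *CTR3*, with 31 and 48 reads, depth limits what could be seen. The *CTR3* and *CTR2* intervals include 0 only by a small margin, and lay below 0 with median centring and with the median of ratios. Neither strand use nor the placing of reads with several matches could be changed.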

Other observations

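*CUP9*, which encodes a transcription repressor with a known part in copper homeostasis, was in no list and was named after its value was seen. It had 311 reads with CuSO4 and 532 in YPD, a change of -0.82 (-1.03 to -0.62), which placed it at rank 14 from the lowest among the 5511 CDS that had 50 reads or more in either library and no near-identical copy. *FET4* was at rank 12 in the same ordering.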
